A study of Mus musculus with 9 samples.

Results

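The genes described here encode the phase II conjugation enzymes of 3 families: glutathione S-transferases (GST), UDP-glucuronosyltransferases (UGT) and sulfotransferases (SULT). They were taken from the authors' signal sheet as every probe set whose only gene symbol begins with Gst plus a class letter (a, k, m, o, p, t or z) and a digit, with Ugt plus 1, 2 or 3, or with Sult plus a digit. This gave 49 genes of 21154 distinct single symbols, with 20 GST, 10 UGT and 19 SULT genes, each measured by 1 of the 22206 probe sets. The samples were livers of male ob/ob mice (C57BL/6JHamSlc-ob/ob), which lack functional leptin and become obese, obtained at 6 weeks of age and acclimatised on standard chow. All groups carried this genotype and stayed on standard chow. The vehicle group received vehicle by oral gavage for 42 days, and the VE50 and VE100 groups received an extract named VE, from Vigna umbellata (rice bean), at 50 or 100 mg/kg body weight over the same time. Each group has 3 Affymetrix Clariom S arrays. Nothing in the labels says that each array came from a separate animal, so p-values measure the spread between these samples. Wild-type mice named in the design were not analysed here.

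Phase II enzymes attach a polar group to a foreign or endogenous compound, which makes it easier to excrete in bile or urine. GSTs use glutathione, UGTs use glucuronic acid carried on UDP, and SULTs use sulfate carried on the donor PAPS. The liver expresses many members of each family, and in rodents the receptors CAR (Nr1i3), PXR (Nr1i2) and AhR and the factor NRF2 (Nfe2l2) are known to drive many of them.

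Values are log2 signal, so a difference of 1 is a 2-fold difference, and signals of different genes are not compared because each probe set has its own response. Vehicle 3 stood apart: its signal correlated at 0.948 to 0.967 across probe sets with the other 8 arrays, which correlated at 0.974 to 0.990 with each other. Its acute phase genes, a list of 15, lay a median of 1.31 above their mean over the 9 arrays, against -0.34 to 0.05 on the other 8. Results that rest on vehicle 3 are therefore given with and without it. All 8 hepatocyte markers were above background on every array, where background is the 95th percentile of that array's negative controls in the deposited value table. None of the 6 cholangiocyte, 7 macrophage or 5 lymphocyte markers did so on every array. By the same limit, 28 of the 49 conjugation genes were above background on all 9 arrays, 7 on some and 14 on none. The share above background on all arrays was 15 of 20 GST, 9 of 10 UGT and 4 of 19 SULT genes.

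None of the 49 genes rose at either dose, and 1, Gstt1, fell at both. Differences were called at the study's own criterion, p under 0.05 before adjustment together with a fold of more than 1.1, here from limma. At 50 mg/kg, 0 of 49 genes rose, where 3.31% of all probe sets did. The 1 that fell was Gstt1 (2.04% of the 49), where 2.8% of all probe sets fell. At 100 mg/kg, 0 genes rose against 5.11% of all probe sets, and Gstt1 alone fell against 4.37%. Between the doses 0 of 49 were higher and 0 were lower at 100 mg/kg, where 1.49% and 1.43% of all probe sets were. After Benjamini-Hochberg adjustment over all probe sets, limma called 0 of the 49 genes in each of the 3 comparisons. That share was also 0% of all probe sets for VE50 against vehicle, 0% for VE100 against vehicle and 0% for VE100 against VE50. At an unadjusted p under 0.05 the members numbered 1, 1 and 0 in that order. With all 9 arrays, the conjugation genes were called no more often than the background in any of these comparisons.

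With all 9 arrays, the families' medians lay between -0.39 and 0.33. At 50 mg/kg the median log2 difference from vehicle was 0.08 for GST, -0.18 for UGT and -0.39 for SULT genes, and -0.01 over all probe sets. At 100 mg/kg the medians were -0.16, -0.20 and 0.09, and -0.01 over all probe sets. Between the doses (VE100 minus VE50) they were -0.24, -0.02 and 0.33. Between arrays of one group the family median itself varied with an SD of 0.33 for GST, 0.29 for UGT and 0.48 for SULT. This is the spread of single arrays, which is wider than the error of a difference between means of 3 arrays. Leaving out 1 array at a time, the median ran from -0.20 to 0.19 at 50 mg/kg and from -0.41 to 0.04 at 100 mg/kg for GST genes. It ran from -0.27 to 0.07 and from -0.34 to -0.02 for UGT genes, and from -0.78 to 0.03 and from -0.11 to 0.20 for SULT genes, so that some of these medians lay more than 1 SD from 0. Both comparisons use the same 3 vehicle arrays. A p that misses the threshold does not show equality: the 95% interval of the difference stayed within 2-fold in either direction for 18 of 49 genes (36.7%) at 50 mg/kg and 19 of 49 (38.8%) at 100 mg/kg. Over all probe sets these shares were 64.7% and 60.8%.

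**Figure D1:**
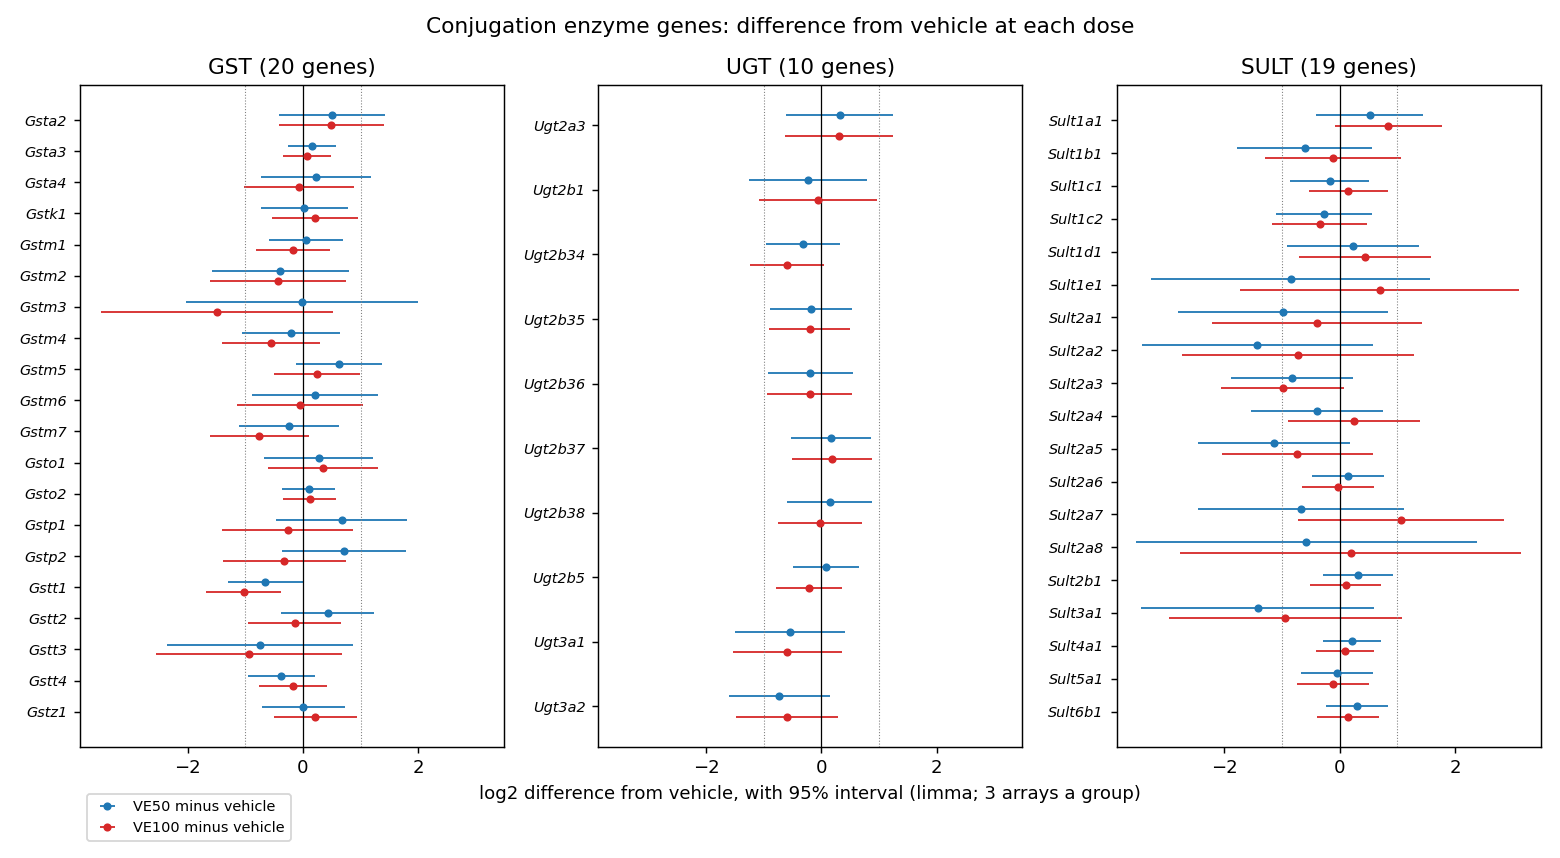
Log2 difference from vehicle with its 95% interval from limma (x axis) for each of the 49 genes (y axis), in 3 panels by family, with VE50 in blue and VE100 in red and dotted lines at a 2-fold change. Gstt1 is the gene whose interval lies below 0 at both doses, at -0.65 and -1.03; the widest intervals belong to SULT genes and Gstm3.

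Gstt1 encodes a theta class transferase, known for conjugating small halogenated compounds. Its signal was 11.10, 11.79 and 10.75 on the vehicle arrays, 10.97, 10.37 and 10.34 on the VE50 arrays, and 10.15, 10.13 and 10.27 on the VE100 arrays. All 3 VE100 arrays lay below every vehicle and every VE50 array, while 1 VE50 array lay inside the vehicle range. At 100 mg/kg the signal was 2.04-fold lower than in vehicle (log2 difference -1.03 ± 0.29 SE, 95% interval -1.68 to -0.38, limma adjusted p = 0.383). At 50 mg/kg it was 1.57-fold lower (log2 difference -0.65 ± 0.29, interval -1.30 to -0.01, limma adjusted p = 0.812). The difference between the doses was -0.38, with an interval of -1.02 to 0.27. The lower signal at 100 mg/kg met the criterion in all 17 alternative fits, with differences of -1.31 to -0.74, and the one at 50 mg/kg in 5 of 17. When 1 array was left out at a time, the difference at 50 mg/kg met it without vehicle 3 (-0.89) or without VE50 1 (-0.86), and not without any other array, with the smallest difference, -0.37, without vehicle 2. In whole liver, fewer cells of a type and less RNA per cell cannot be told apart. Of 8 hepatocyte markers, 0 passed at either dose with all 9 arrays. Alb read 19.92 to 19.93 and Ttr 19.80 to 19.93, where 19.93 is the highest value of the sheet. A rise in these markers could therefore hardly be seen. Of 7 macrophage markers, 2 fell at 100 mg/kg (Adgre1 by 1.05 and Cd5l by 2.13), which is 28.6% against 4.37% of all probe sets. At 50 mg/kg 1 of the 7 fell (14.3%, against 2.8%). Clec4f had a mean above vehicle at 100 mg/kg, 6.69 against 6.54. Of these macrophage markers, 6 of 7 were above background on no array. The list's median deviation per array was 0.19 to 0.46 in vehicle, -0.34 to 0.78 at 50 mg/kg and -0.87 to 0.03 at 100 mg/kg. Its part in the Gstt1 result was not tested.

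Gstt1 lies on chromosome 10 between Gstt3 and Gstt4, followed by Gstt2, and these 4 theta genes did not share one pattern. Gstt3 read 11.11, 11.35 and 8.16 on the vehicle arrays, 9.45, 8.87 and 10.05 at 50 mg/kg, and 8.74, 9.20 and 9.89 at 100 mg/kg. Vehicle 3 held the lowest Gstt3 value of all 9 arrays while vehicle 1 and vehicle 2 held the highest. With all arrays, Gstt3 differed from vehicle by -0.75 ± 0.73 and -0.93 ± 0.73 and did not pass the criterion. Its signal was above background on 6 of 9 arrays. Without vehicle 3 the differences were -1.77 ± 0.38 (limma adjusted p = 0.0858) and -1.95 ± 0.38 (limma adjusted p = 0.0276). Gstt2 ranged from 10.37 to 11.79 and Gstt4 from 3.31 to 4.19, both with overlapping groups, and Gstt4 was above background on no array.

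**Figure D2:**
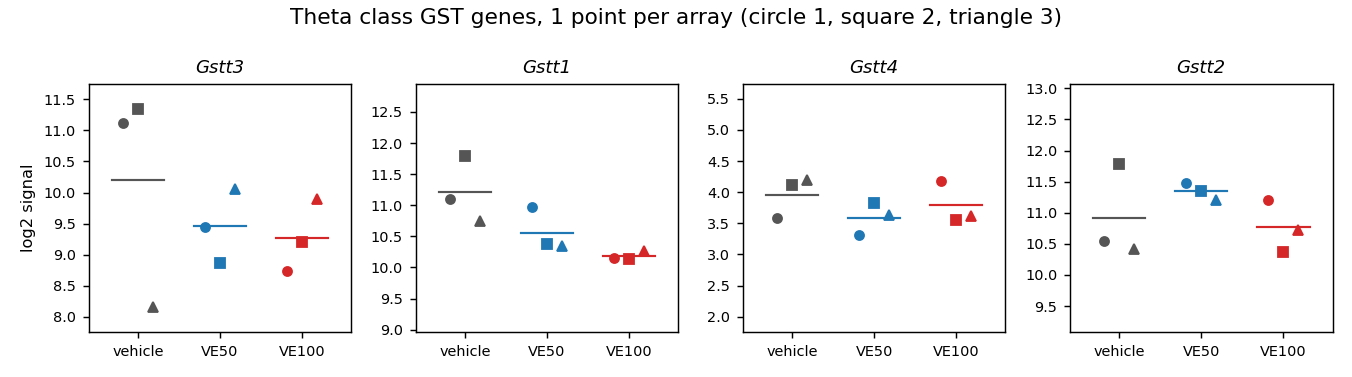
Log2 signal (y axis, same span in each panel) of the 4 theta class genes on each array, by group (x axis), with lines at group means. Gstt1 falls from a mean of 11.21 in vehicle to 10.56 and 10.18 at the doses, while the Gstt3 vehicle arrays split between 8.16 and 11.35.

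The upstream sequences of this called gene and of its neighbour are shown to let their letters be compared. RefSeq promoters of build GRCm38.p6 were found for 42 of the 49 genes (all but Gsta4, Gstt2, Sult2a1, Sult2a2, Sult2a7, Sult4a1 and Ugt3a2). Only the 250 bases before each start were read. They were searched on both strands for the NRF2 core TGACNNNGC, the AhR core GCGTG and the HNF1 core GTTAAT, and capitals mark a match. The HNF1 core is only part of the site of that factor. In the 53 windows of these genes, matches to different motifs overlapped 1 time. Neither of these windows holds a match, which says only that these letters are not in this window.
Gstt1, chr10:75797732-75797981, minus strand: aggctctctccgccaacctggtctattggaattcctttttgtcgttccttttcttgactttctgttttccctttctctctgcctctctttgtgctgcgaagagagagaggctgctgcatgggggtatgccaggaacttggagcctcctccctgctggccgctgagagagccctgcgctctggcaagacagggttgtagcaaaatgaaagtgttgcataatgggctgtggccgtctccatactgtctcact
Gstt3, chr10:75781415-75781664, minus strand: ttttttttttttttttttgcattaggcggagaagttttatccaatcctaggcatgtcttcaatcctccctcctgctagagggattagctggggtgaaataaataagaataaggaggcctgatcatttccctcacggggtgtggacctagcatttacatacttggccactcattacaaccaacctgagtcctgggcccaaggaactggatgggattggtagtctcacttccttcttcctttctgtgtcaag
In a global alignment the bases were identical in 45.8% of columns. Here and below, columns with a gap count as not identical. Gstt3 has a further window, chr10:75781423-75781672, which overlaps the one shown, and the value may refer to that window. The NRF2 core occurred in 5.66% of the 53 windows of conjugation genes (Gsta3, Gstm5 and Gstm7), against 10.2% of all 32851 windows. The AhR core occurred in 15.1% against 28.2%, and the HNF1 core in 17% against 6.43%.

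The 7 mu class genes, Gstm5, Gstm7, Gstm6, Gstm3, Gstm2, Gstm1 and Gstm4, lie side by side on chromosome 3. At 100 mg/kg 6 of the 7 had a mean below vehicle, with a class median of -0.43, and 0 passed the criterion. Gstm3 varied most within groups: it read 18.60, 18.64 and 16.36 in vehicle, 17.97, 18.08 and 17.51 at 50 mg/kg, and 18.68, 15.80 and 14.64 at 100 mg/kg. The VE100 arrays thus spanned 4.04 log2 units, from the highest to the lowest value in the set. The mean difference at 100 mg/kg was -1.49, with an interval of -3.51 to 0.52 (limma adjusted p = 0.629). Without vehicle 3 the difference was -2.25 ± 0.83 (limma adjusted p = 0.193). Gstm4 at -0.94 and Gstm7 at -1.07 also fell at 100 mg/kg in that fit. Gstm1, a major hepatic mu transferase, read 19.93, 19.93 and 19.24 in vehicle, 19.68, 19.93 and 19.66 at 50 mg/kg and 19.92, 19.66 and 19.00 at 100 mg/kg. Since 19.93 is the highest value of the sheet, a difference above it could not be seen. Gstm5 was the gene whose VE50 arrays all lay above vehicle, at 7.45 to 8.20 against 6.79 to 7.42, and it was above background on no array. The groups did not overlap for 1 of the 49 genes at 50 mg/kg, against 10.9% of all probe sets.

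The pi class has 2 neighbouring genes on chromosome 19, Gstp1 and Gstp2, whose products conjugate electrophiles and are known to be higher in male than in female mouse liver. Gstp1 read 14.65, 14.44 and 13.87 in vehicle, 15.21, 15.33 and 14.43 at 50 mg/kg, and 15.20, 14.12 and 12.85 at 100 mg/kg. Gstp2 ranked the arrays of each group in the same order, and ran from 15.25 on VE50 2 down to 12.58 on VE100 3. Both genes were highest on the same array and lowest on the same array. The dose difference was -0.93 for Gstp1 (interval -2.07 to 0.20) and -1.04 for Gstp2 (interval -2.11 to 0.04), and neither passed. Gstp2 passed the criterion in 6 alternative fits, one of them without vehicle 3. The genes are close copies, so the probe sets may share target RNA, which was not tested. Their upstream windows are shown because they are alike as well as the signals: 78.1% of aligned columns were identical, and the capitals in Gstp1 mark an AhR core that the Gstp2 window lacks.
Gstp1, chr19:4037913-4038162, minus strand: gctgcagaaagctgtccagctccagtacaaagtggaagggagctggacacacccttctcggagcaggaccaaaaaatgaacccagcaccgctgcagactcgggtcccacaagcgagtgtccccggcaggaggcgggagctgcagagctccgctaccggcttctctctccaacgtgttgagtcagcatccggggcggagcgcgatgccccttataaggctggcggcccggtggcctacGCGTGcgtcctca
Gstp2, chr19:4042222-4042471, minus strand: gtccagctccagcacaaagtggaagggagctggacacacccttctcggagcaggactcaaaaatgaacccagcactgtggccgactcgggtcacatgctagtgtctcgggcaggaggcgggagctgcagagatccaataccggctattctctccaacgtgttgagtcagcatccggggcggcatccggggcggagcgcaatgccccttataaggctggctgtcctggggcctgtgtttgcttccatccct

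**Figure D3:**
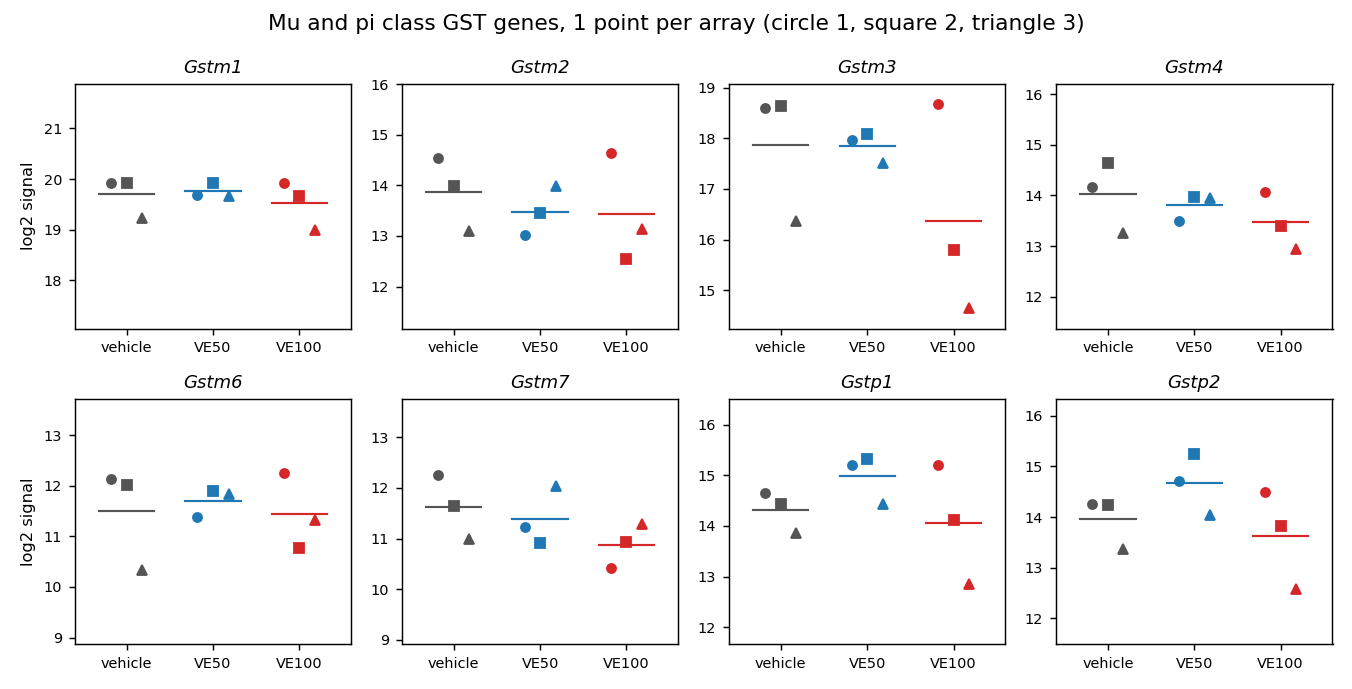
Log2 signal (y axis, same span in each panel) of 6 mu class genes and the pi class genes Gstp1 and Gstp2 on each array, by group (x axis), with lines at group means. Gstm3 on the VE100 arrays runs from 14.64 to 18.68, and Gstp1 and Gstp2 are lowest on VE100 3.

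The 3 alpha class genes differed in spread. Gsta3, which in mice detoxifies aflatoxin epoxide, read 18.93, 18.95 and 18.71 in vehicle, 18.94, 18.94 and 19.18 at 50 mg/kg, and 18.93, 18.94 and 18.94 at 100 mg/kg. Its within-group SD of 0.11 was the lowest of the 49 genes, and its 95% interval at 100 mg/kg ran from -0.35 to 0.49. Whether a signal this high still follows the amount of RNA was not tested. Gsta2 ranged from 15.36 on vehicle 3 to 17.50 on VE100 1, and Gsta4, which clears the lipid peroxidation product 4-hydroxynonenal, from 11.18 to 12.66. A probe set shared by Gsta1 and Gm3776, outside the rule because it carries several symbols, had means of 14.21, 14.37 and 14.23 in the 3 groups. In the kappa, zeta and omega classes, Gstk1 differed from vehicle by 0.21 at 100 mg/kg, Gstz1, an enzyme of tyrosine breakdown, by 0.22, Gsto1 by 0.35 and Gsto2 by 0.12. None of these 4 passed the criterion at either dose, and Gsto2 was above background on no array.

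The UGT genes showed the tightest values of the 3 families, with a median range over the 9 arrays of 1.29 log2 units against 1.68 for GST and 2.29 for SULT genes. No UGT gene ranged over more than 2 units. Ugt3a2, a member of the small UGT3 family that in humans uses sugars other than glucuronic acid, read 18.08, 17.79 and 18.72 in vehicle, 17.29, 16.93 and 18.19 at 50 mg/kg, and 16.95, 17.95 and 17.92 at 100 mg/kg. Its differences were -0.73 (interval -1.61 to 0.15, limma adjusted p = 0.826) and -0.59 (interval -1.47 to 0.29), with overlapping groups. Its neighbour on chromosome 15, Ugt3a1, differed by -0.54 and -0.59, also short of the criterion. Without vehicle 3 the differences were smaller, -0.47 and -0.33 for Ugt3a2 and -0.29 and -0.33 for Ugt3a1. Ugt2b36 read 17.06, 17.60 and 18.26 in vehicle, 17.50, 16.97 and 17.88 at 50 mg/kg, and 17.19, 17.58 and 17.55 at 100 mg/kg. The means of its groups, 17.64, 17.45 and 17.44, differed by less than the spread within vehicle.

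The other 7 Ugt2 genes lie with Ugt2b36 in a cluster on chromosome 5, which encodes enzymes for steroids, bile acids and drugs. Ugt2b34 had the lowest difference of these at 100 mg/kg: vehicle arrays read 15.52, 15.69 and 15.00 and VE100 arrays 15.30, 14.63 and 14.48. With all arrays the difference was -0.60 (interval -1.24 to 0.04, limma adjusted p = 0.551), and without vehicle 3 it was -0.80 ± 0.29 (limma adjusted p = 0.181). Ugt2b37 was above background on no array. The Ugt2 genes other than Ugt2b34 differed from vehicle by -0.23 to 0.32 at 50 mg/kg and by -0.21 to 0.31 at 100 mg/kg. The Ugt1a genes, which share their last exons and include the bilirubin-conjugating Ugt1a1, are read by 1 probe set with several symbols, outside the rule. Its group means were 17.83 ± 0.66, 17.81 ± 0.09 and 17.70 ± 0.19 (SD, n = 3), and its difference at 100 mg/kg was -0.13, with an interval of -0.81 to 0.54.

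The SULT genes spread widest within groups, and with all 9 arrays none passed the criterion in any comparison. Of the 19, 12 ranged over more than 2 log2 units across the 9 arrays and 7 over more than 3. Sult2a8, a bile acid sulfotransferase of mouse liver, read 12.88, 13.64 and 15.88 in vehicle, 11.92, 13.09 and 15.66 at 50 mg/kg, and 11.66, 14.24 and 17.08 at 100 mg/kg. The lowest and highest of these arrays, both in the VE100 group, differed 42.8-fold, while the group means of 14.13, 13.56 and 14.33 lay within 1 unit of each other. Sult1e1, the oestrogen sulfotransferase, known to be raised in livers of obese diabetic mice, read 14.20, 10.87 and 15.80 in vehicle, 11.65, 12.29 and 14.38 at 50 mg/kg, and 13.67, 14.15 and 15.14 at 100 mg/kg. The vehicle arrays held both its lowest and its highest value. Its differences of -0.85 and 0.70 became 0.24 ± 0.91 and 1.79 ± 0.91 without vehicle 3, and those of Sult2a8, -0.58 and 0.19, became 0.30 ± 1.29 and 1.07 ± 1.29; none of these passed.

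In both of these genes the array numbered 3 was the highest of its group in all 3 groups. The same held for Sult1b1, Sult1d1, Gstk1, Ugt2b1 and Ugt3a1, which makes 7 of 49 genes (14.3%) against 4.43% of all probe sets. Gstm1, Gstm3, Gstp1, Gstp2 and Ugt2b34 were lowest on the array numbered 3 in every group, 5 of 49 (10.2%) against 4.57%. All 3 numbers were looked at, and number 3 had the largest shares. Number 1 was highest for 2.04% (against 3.16%) and lowest for 4.08% (against 2.53%). Number 2 was highest for 0% (against 2.5%) and lowest for 0% (against 3.31%). Neighbouring genes such as Gstp1 and Gstp2 are not independent. The numbers name samples, and nothing in the labels says that equal numbers share a day or batch.

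Sult1a1, the main phenol sulfotransferase, read 14.15, 13.88 and 12.92 in vehicle, 14.23, 13.66 and 14.62 at 50 mg/kg, and 13.87, 14.41 and 15.20 at 100 mg/kg. Its difference at 100 mg/kg was 0.84 (interval -0.08 to 1.77, limma adjusted p = 0.559), with overlapping groups, and without vehicle 3 it was 0.48 ± 0.38. Sult1b1, which sulfates thyroid hormones, differed by -0.61 and -0.11, and Sult1d1, which sulfates catecholamines, by 0.23 and 0.44. Sult1c1 was the gene whose VE100 arrays all lay above VE50, at 2.85 to 2.96 against 2.43 to 2.79, but it was above background on no array. Between the doses the groups did not overlap for 2 of 49 genes, Sult1c1 and Gstt1, against 10% of all probe sets. At 100 mg/kg against vehicle this held for Gstt1 alone, against 13.6%.

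The 8 Sult2a genes, hydroxysteroid and bile acid sulfotransferases that in mice are mostly higher in females, lie next to each other on chromosome 7. Of these, 5 (Sult2a1, Sult2a2, Sult2a3, Sult2a4 and Sult2a5) had their lowest value on the same array, VE50 2. The low values were not particular to this cluster: 11 of the 49 genes were lowest on VE50 2. Those outside it were Sult1b1, Sult1c2, Sult3a1, Ugt2b36, Ugt2b37 and Ugt3a2. The median deviation of the SULT genes on VE50 2 was -0.92, and the share of all probe sets lowest on it is not given. Sult2a2 read 7.80 there, against 11.17 and 11.00 on the other VE50 arrays, 10.85 to 12.05 in vehicle and 9.05 to 11.77 at 100 mg/kg. Sult2a5 read 5.37 there and 6.79 to 8.63 on the other 8 arrays. Sult2a2 was above background on 8 of 9 arrays and Sult2a1 on 4, while Sult2a3, Sult2a4 and Sult2a5 were above it on none. The 5 genes did not follow Sult2a8, which read 13.09 on VE50 2, between the other VE50 arrays. Sult2a7, the neighbour of Sult2a8, was 1.73 higher at 100 than at 50 mg/kg (interval -0.05 to 3.52), short of the criterion, and was above background on 1 array. Sult2a3 differed from vehicle by -0.82 and -0.99 (interval at 100 mg/kg -2.05 to 0.08, limma adjusted p = 0.553). Sult3a1, an amine sulfotransferase that is higher in female mice, read 6.86, 7.58 and 10.68 in vehicle, where vehicle 3 alone was high, and 5.65 to 8.20 on the 6 treated arrays. Sult3a1 was above background on 1 array. Its differences of -1.42 and -0.94 did not pass the criterion, and without vehicle 3 they were -0.27 ± 0.60 at 50 mg/kg and, with the sign turned, 0.21 ± 0.60 at 100 mg/kg.

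The upstream windows of Sult2a3 and Sult2a5 are shown because both genes were lowest on VE50 2 and the HNF1 core occurs 2 times in each. The core holds the letters of only part of a liver factor's site. The 2 windows were identical in 73.3% of aligned columns. Sult2a4 and Sult2a6 hold the core 1 time each. Sult2a4, also lowest on VE50 2, was identical in 57.8% of columns to Sult2a3 and in 47.7% to Sult2a5. Those alignments ran over 308 and 329 columns, against 273 for Sult2a3 with Sult2a5, and so held more gap columns. The shares therefore do not rank how alike the paired bases are. Sult2a6 was lowest on VE100 1. Sult2a3 and Sult2a5 were above background on no array, and a link between the core and the signal was not tested. Capitals mark the core.
Sult2a3, chr7:14123049-14123298, minus strand: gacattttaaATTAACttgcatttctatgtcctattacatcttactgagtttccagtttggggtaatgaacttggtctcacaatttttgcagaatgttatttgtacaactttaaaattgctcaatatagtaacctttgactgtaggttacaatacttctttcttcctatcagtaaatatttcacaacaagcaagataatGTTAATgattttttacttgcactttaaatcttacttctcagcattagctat
Sult2a5, chr7:13623717-13623966, plus strand: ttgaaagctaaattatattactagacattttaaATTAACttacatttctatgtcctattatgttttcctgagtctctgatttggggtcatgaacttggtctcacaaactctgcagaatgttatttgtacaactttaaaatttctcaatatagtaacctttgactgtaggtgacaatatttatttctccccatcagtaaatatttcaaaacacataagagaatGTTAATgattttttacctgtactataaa

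**Figure D4:**
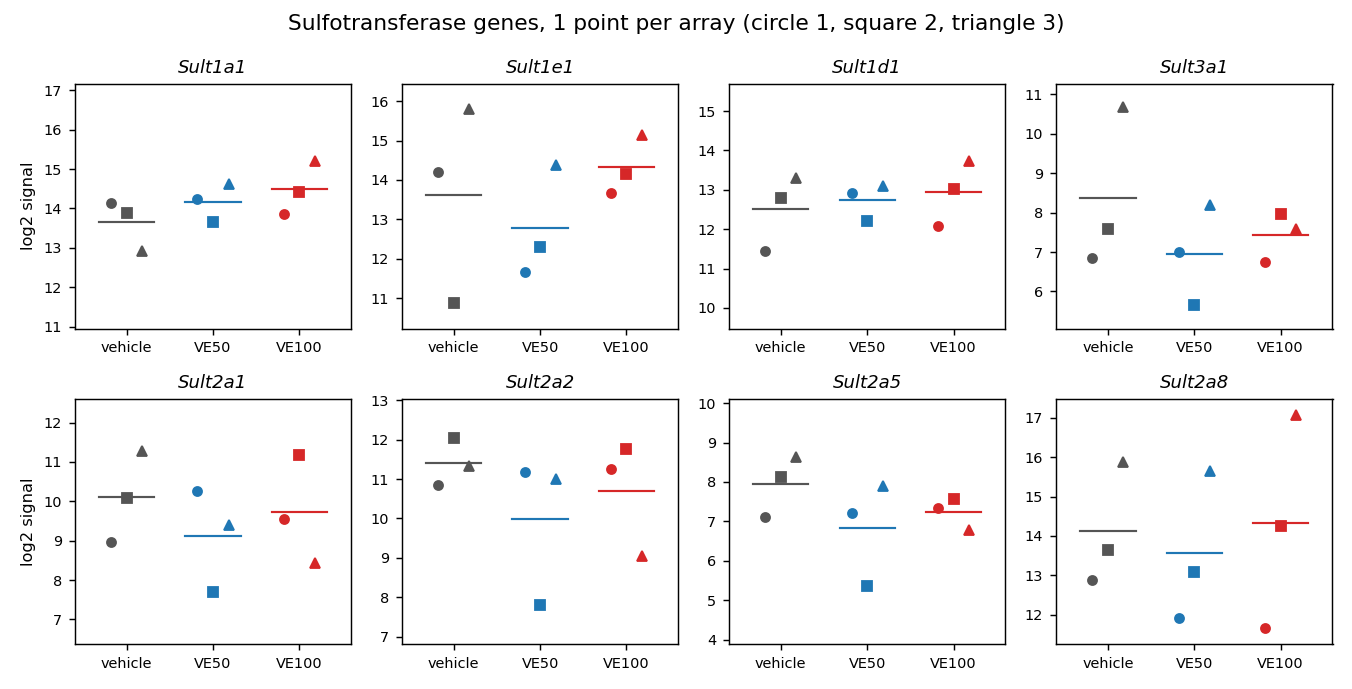
Log2 signal (y axis, same span in each panel) of 8 SULT genes on each array, by group (x axis), with lines at group means. Sult2a8 runs from 11.66 to 17.08 within the VE100 group, Sult1e1 from 10.87 to 15.80 within vehicle, and Sult2a1, Sult2a2 and Sult2a5 are lowest on VE50 2.

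The remaining SULT genes, Sult2b1, Sult4a1, Sult5a1, Sult6b1 and Sult2a6, were above background on no array, and their differences from vehicle lay between -0.11 and 0.32 at the 2 doses. Sult1c2, also above background on no array, differed by -0.27 and -0.34.

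The spread between arrays of one group was wider for these genes than for the array as a whole. The within-group SD, pooled over the 3 groups, had a median of 0.57 for the 49 genes and 0.35 for all 22206 probe sets. Among probe sets with a mean signal over 10, the medians were 0.60 for 30 conjugation genes and 0.44 for 2362 probe sets. The SD of 11 of the 49 genes (22.4%) exceeded 0.78, the 95th percentile of all probe sets. The widest were Sult2a8 at 2.12, Sult1e1 at 1.72, Sult3a1 and Gstm3 at 1.43 and Sult2a2 at 1.42. Genes of one cluster may share target RNA and are not independent.

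**Figure D5:**
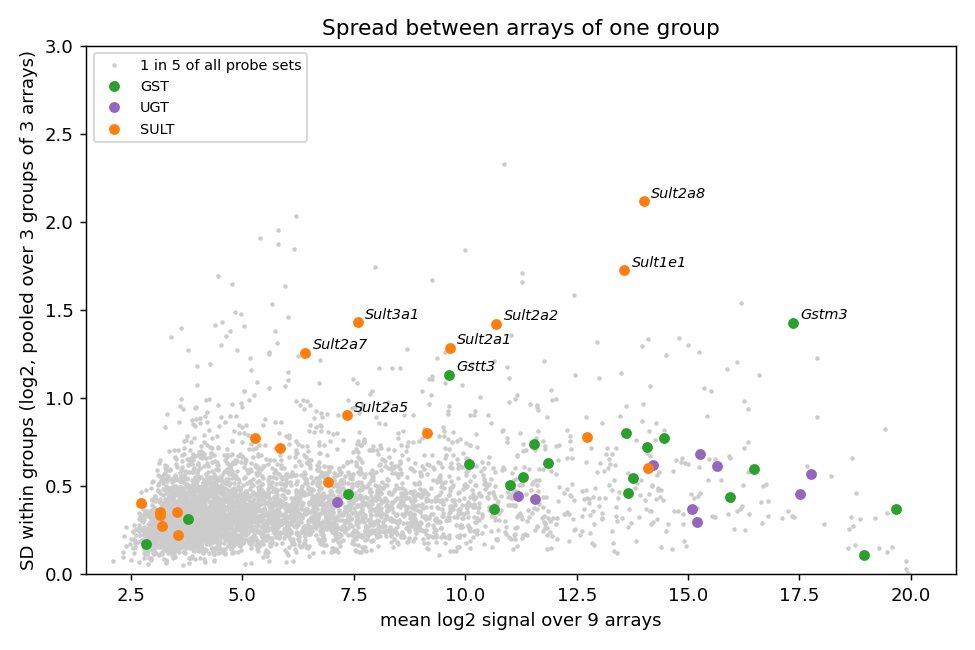
Within-group SD (y axis, log2 units, pooled over 3 groups of 3 arrays) against mean log2 signal over 9 arrays (x axis) for the 49 genes, coloured by family, and for 1 in 5 of all probe sets in grey. Sult2a8, at an SD of 2.12, and Sult1e1, at 1.72, stand highest among the named genes, while Gsta3 lies at 0.11.

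Leaving out vehicle 3 changed these counts. At 50 mg/kg 1 gene then rose (Gstm5, by 0.80) against 5.95% of all probe sets, and 2 fell (Gstt1 and Gstt3; 4.08%) against 7.52%. At 100 mg/kg 1 gene rose (Sult1c1, by 0.53) against 6.99%, and 6 fell (12.2%) against 9.62%: Gstt1, Gstt3, Gstm3, Gstm4, Gstm7 and Ugt2b34. Gstt1 (limma adjusted p = 0.0447) and Gstt3 passed the adjusted threshold at 100 mg/kg, among 434 of all probe sets. On vehicle 3, GST genes lay a median of 0.51 below and SULT genes 0.56 above their mean over the arrays. The 13 regulators lay 1.08 below. Vehicle 1 and vehicle 2 also differed from the treated arrays in control probe sets: the negative control median lay 3.88 and 3.79 below the positive control median, against 3.12 to 3.53 on the treated arrays. In the fit without vehicle 3 an array-level difference and the treatment cannot be told apart. Vehicle 1 and vehicle 2 also enter the fit of all 9 arrays, so the limit reaches that fit in part. Gstt1 read highest on these arrays, at 11.10 and 11.79, and the part of an array-level difference in its result was not tested.

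Genes that serve the same pathway moved in a few places. Among 14 other conjugating enzymes, 1 rose at 50 mg/kg (7.14%), where 3.31% of all probe sets rose. It was Hpgds, a sigma class GST that makes prostaglandin D2, which went from a mean of 4.10 to 5.10 (limma adjusted p = 0.794) and was above background on no array. Between the doses Hpgds was lower at 100 mg/kg, by a difference of -0.76.

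Of 13 measured genes that supply cosubstrates, 3 fell at 100 mg/kg (23.1%), where 4.37% of all probe sets fell, and 0 rose. They were Gclc (-1.26, adjusted p = 0.416 by limma) and Gclm (-0.66), which together form the first enzyme of glutathione synthesis, and Slc35b2 (-0.76), a PAPS transporter. At 50 mg/kg Gclm fell by 0.65 and the other 12 did not pass (7.69%, against 2.8% of all probe sets). Slc35b2 was above background on no array. Of 13 regulators, Nr1i2 (0.95) and Nr1i3 (1.49, adjusted p = 0.460 by limma) rose at 100 mg/kg (15.4%, against 5.11% of all probe sets) and 0 passed at 50 mg/kg. Nr1i3 read 12.78, 13.27 and 11.16 in vehicle and 13.86, 14.09 and 13.73 at 100 mg/kg, so that vehicle 3 was again the lowest. Without vehicle 3 the Nr1i3 difference was 0.87 ± 0.44 and no longer passed, while Nr1i2 still did (0.68 ± 0.28). Of 6 measured readout genes of these regulators, such as Cyp2b10 and Nqo1, 0 passed in any comparison with all 9 arrays, nor did any of 11 sex-biased liver genes or 5 genes for the breakdown of conjugates. The median difference of the 6 readout genes from vehicle was 0.13 at 50 mg/kg and 0.79 at 100 mg/kg. Among them, Cyp3a11 had a vehicle mean of 19.91, near the highest value of the sheet, 19.93, so a rise could hardly be seen. Cyp1a1 was above background on no array.

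These lists too changed without vehicle 3. Of the regulators, 4 of 13 then fell at each dose, where 7.52% of all probe sets fell at 50 mg/kg and 9.62% at 100 mg/kg. Nfe2l2 (NRF2) differed by -0.89 and -1.01 in that fit, against -0.36 and -0.49 with all arrays, and was above background on no array. Of the genes that supply cosubstrates, 4 of 13 fell at 50 mg/kg and 5 at 100 mg/kg, Gclc (-1.42), Gclm (-0.87) and Slc35b2 (-0.82) among the latter. Of the genes for the breakdown of conjugates, 2 of 5 fell at each dose. Of the readout genes, 1 of 6 fell at 50 mg/kg and 0 passed at 100 mg/kg. Of the sex-biased genes, 1 of 11 fell at 50 mg/kg and 1 rose at 100 mg/kg. Of the macrophage markers, 4 of 7 fell at 100 mg/kg and 0 at 50 mg/kg. Among the 8 hepatocyte markers, 1 fell at 50 mg/kg, and 1 rose and 1 fell at 100 mg/kg.

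The authors' deposited table of genes that differ between VE100 and vehicle lists 2 of the 49 genes (4.08%), and its 1815 rows are 8.17% of all probe sets. Gstt1 stands in the authors' deposited table with a signed fold of -2.03, a p of 0.0063 and an FDR of 0.4887. Sult2a3 stands in the authors' deposited table with a signed fold of -3.15, a p of 0.0455 and an FDR of 0.6061. In the fit over all 9 arrays Sult2a3 was 1.98-fold lower and did not pass.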

How the data were processed

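Log2 signal per probe set was deposited by the authors, after SST-RMA normalization (Transcriptome Analysis Console 4.0.2, per the labels' design). The deposited value table of log2 values also holds control probe sets. The authors' filtered table compares VE100 with vehicle by a signed fold (a score, negative where VE100 is lower), a p-value and its FDR. The genome build of the array annotation is not given in the sources used here.

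Here, limma 3.58.1 (lmFit, eBayes) in R 4.3.3 fitted group means to all 9 arrays and 22206 probe sets, after a test on simulated data. P-values are two-sided, with Benjamini-Hochberg adjustment at 0.05; errors are SE. Background is the 95th percentile of 5222 negative control probe sets per array. The members and lists were chosen with earlier results of these data known. By rule, per-array values are given for genes past the criterion and for 2 genes of highest mean signal per family; other genes with per-array values were chosen after their values were seen. Nothing in the labels says that replicate numbers pair samples, so no pairing was fitted in the main fit. Correlations of the deviations of arrays of equal number ran from -0.24 to 0.21, and 3 of 9 exceeded 0.1. With 3 arrays a group they cannot decide whether samples were paired. The number of arrays limits the precision. No hybridisation batch was given, so none was fitted. The fit of the pathway and marker lists without vehicle 3 was chosen after seeing the data. For 1 gene of the pathway lists no result is reported here.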

Additional observations from a re-analysis of the deposited data

How the results depend on the processing

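The lower Gstt1 signal at 100 mg/kg met the criterion in 17 of 17 alternatives, and that at 50 mg/kg in 5 of 17; no difference of a single gene reversed past the criterion. For VE50 against vehicle, genes lower past the criterion numbered 0 with median-centred arrays, without the dimmest 25% of probe sets, with only the 2 groups compared and with an intensity trend and robust prior. Quantile normalization called 1 gene higher at 100 mg/kg (Sult1a1). With only the 2 groups compared, 2 genes were lower at 100 mg/kg, and between doses 1 was higher and 2 lower, with 1119 of all probe sets past the criterion. Array weights gave 1 higher and 2 lower at 50 mg/kg (2902 of all), 6 lower at 100 mg/kg (3743 of all, GST median -0.51), and 1 higher and 3 lower between doses (1267 of all). With a replicate block, 1 gene was higher at 50 mg/kg and 3 were lower at 100 mg/kg. Between doses 1 was higher and 3 lower in that fit. Counts given here without a count over all probe sets cannot be set against the background of the same fit. Nothing in the labels says whether the numbers pair the samples.

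Leaving out 1 array at a time, genes higher numbered 0 to 1 at 50 mg/kg, 0 to 2 at 100 mg/kg and 0 to 2 between doses. Genes lower numbered 0 to 4 at 50 mg/kg (0 without VE50 2 or any VE100 array, 3 without vehicle 1, 2 without vehicle 3, 4 without VE50 3), 1 to 6 at 100 mg/kg (6 without vehicle 3, 4 without VE100 1) and 0 to 3 between doses (3 without VE100 1). Genes past the adjusted threshold at 100 mg/kg numbered 0 to 2. Of all probe sets, 987 to 2991, 1619 to 3688 and 413 to 1247 passed the criterion in the same order. These totals take both directions together, so they are no background for the genes higher or lower alone. The mean of several probe sets per gene gave no separate value, since each gene has 1. The causes were not tested. The 14 genes above background on no array limit what can be said of them.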
